A study of Mus musculus with 12 samples.

Results

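Acetylation of histone H3 at lysine 27 (H3K27ac) was compared gene by gene between *Cx3cr1*-KO and WT microglia, the resident macrophages of the brain. The values are ChIP-seq read counts, obtained by recovering chromatin with an antibody to the mark and sequencing the DNA. Of the 55862 H3K27ac peaks in the merged table, the 21033 found in both the WT and the KO peak list were kept, so a peak listed in only one genotype is not covered here. Reads were added up for each gene that the submitters' annotation gave as nearest. Peaks whose center lay within 1000 bp of the transcription start site (TSS) formed the promoter sum, and all others formed the distal sum. This gave 10947 genes of the 16945 with any H3K27ac peak, and 13561 sums, of which 7582 were promoter and 5979 distal. Both sums existed for 2614 genes, 4968 genes had a promoter sum alone, and 3365 had a distal sum alone.

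Microglia came from 2-mo-old mice on the C57BL/6J background. The WT mice were littermates with intact *Cx3cr1*, and the KO mice were *Cx3cr1* eGFP/eGFP, with both copies disrupted by the gene for the fluorescent protein eGFP; no other treatment was given. Cells were sorted as CD11b+ CD45lo, and each library was made from a pool of 3 mice of one sex. There was 1 female and 1 male pool per genotype, so each comparison has n = 2 pools against 2, and 4 of the 12 samples of the series were used for it. A pool averages its mice, and all differences between single mice are hidden.

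H3K27ac is placed on nucleosomes at active promoters and enhancers, and enhancers with the mark usually lie away from the TSS, in clusters near genes that define a cell type. In microglia such regions are set up by lineage factors such as PU.1, together with SALL1 and the MEF2 family. CX3CR1 is the microglial receptor for fractalkine (CX3CL1), a chemokine that neurons display on their surface. It signals through an inhibitory G protein and is known to restrain inflammatory activity in these cells.

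One library stood apart. Peaks of both lists held 13.2% of the reads of the WT female pool, against 57.5% for the male WT pool and 60.9% and 56.8% for the female and male KO pools. The total number of mapped reads ran from 10395804 in the WT male to 21134403 in the WT female pool. Values below are CPM (counts scaled by TMM to the same total of reads in all sums for each library). The 2 values of a genotype are given with the female pool first, and log2 fold changes are KO over WT. Across all sums, the SD of the log2 ratio between the WT pools was 0.78, larger than the 0.45 between the KO pools and than the 0.57 between the genotypes in males or the 0.60 in females. The female ratio of KO to WT also moved with the level. Its median was −0.38 in the lowest of 5 equal groups of sums by level and 0.24 in the highest, while the male medians were −0.08 and −0.05. Reads of *Xist* and of 4 Y-linked genes matched the sex label of every H3K27ac library.

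The regions that these sums rest on are shown first for some of the sums that lead the comparison. PU.1 matches were searched with the letters GAGGAAGT on both strands of the whole peaks. The distal peaks near *Ccr1* held 7 matches in 34.62 kb, or 0.202 per kb, and the *Cx3cr1* peak held 2 in 47.72 kb, or 0.0419 per kb. The density was 0.38 per kb near *Itpripl2* (3 matches in 7.89 kb) and 0.152 per kb near *Ccr1l1* (2 in 13.13 kb). In the 4.2 kb near *Tmem121b* and the 2.98 kb near *Tnrc6c*, 0 matches were found. Over all 13340 distal peaks on assembled chromosomes the density was 0.13 per kb, so stretches this short can hold 0 matches at that density. One match from each of 3 regions is printed below from the mm10 genome with 16 bases on each side, in the direction that reads the match, with the match in capitals. They are the match nearest to the center of the peak for *Ccr1* (chr9:123940758-123940797, + strand) and *Ccr1l1* (chr9:123985168-123985207, − strand), and for *Cx3cr1* the nearer one (chr9:120058893-120058932, − strand).
Ccr1: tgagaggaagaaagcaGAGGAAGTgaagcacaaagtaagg
Ccr1l1: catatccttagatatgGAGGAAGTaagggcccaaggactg
Cx3cr1: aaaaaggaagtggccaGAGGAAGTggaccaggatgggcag
A match is a string of letters and not a measured binding site.

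Over the 13561 sums, 0 differed between KO and WT in the quasi-likelihood F-test of edgeR (Benjamini-Hochberg adjusted p under 0.05, 0% of sums), and the lowest adjusted p was 0.9997. DESeq2 called 1 sum, the distal one of *Ccr1*, and limma voom with sample weights called 3, those of *Ccr1*, *Ccr1l1* and *Tnrc6c*. Without adjustment, 400 sums had a p under 0.05 in edgeR, which is 2.95% of those tested, 196 of them higher (1.45%) and 204 lower (1.5%) in KO. By class these were 207 promoter sums (2.73%) and 193 distal sums (3.23%). The log2 fold changes had a median of −0.02 for promoter sums and 0.01 for distal sums, and 95% of all sums lay between −1.10 and 0.65. A difference of 2-fold or more was seen in 202 promoter and 293 distal sums. The median SE was 0.32, falling from 0.71 in the lowest to 0.22 in the highest of the 5 level groups, and the median 95% interval reached 0.69 on the log2 scale to each side. Differences of about 2-fold at single genes were hardly detectable in simulated counts that gave every sum and pool the same dispersion (0.0795). There, the test found 7 of 100 sums changed 2-fold and 80 of 100 changed 4-fold, with 1 false call. The unequal spread between the real pools and between levels was not simulated, so these rates are only a rough guide.

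**Figure D1:**
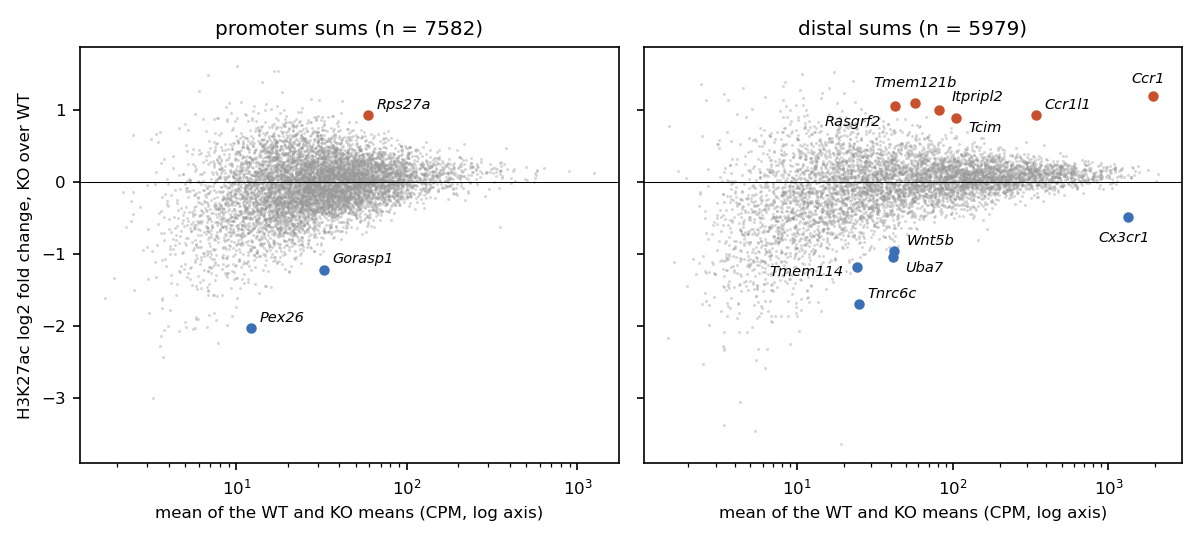
H3K27ac log2 fold change of KO over WT (vertical axis) against the mean level in CPM (horizontal log axis) for each promoter sum (left) and distal sum (right); named points are the leading sums, red above and blue below 0. The cloud narrows as the level rises, and *Ccr1*, *Ccr1l1* and *Cx3cr1* lie outside it at high level.

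Both KO pools lay above both WT pools in 2051 sums (15.1%) and below both in 2111 (15.6%), together 30.7% of all sums. These percentages are the background for the counts of non-overlapping sums given below. The sign of the KO to WT ratio was the same in females and males in 46.6% of the sums. The median ratio of the female pools was −0.11 for promoter sums and 0.11 for distal sums, and that of the male pools was 0.08 and −0.07.

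*Cx3cr1* has a distal sum only, made of 1 peak of 47.7 kb (chr9:120026314-120074030 in mm10). The peak covers the TSS, but its center lies 18.1 kb away and so it counts as distal. It held 1248 and 1859 CPM in the WT pools and 1076 and 1140 CPM in the KO pools. Both KO pools were below both WT pools, with a mean of 1108 CPM beside 1554 CPM in WT. The log2 fold change was −0.49 (SE 0.25, 95% interval −1.03 to 0.05). The difference did not pass the threshold (adjusted p = 0.9997), and it was −0.75 without the WT female and −0.17 without the WT male pool. Any bases that the eGFP allele replaces fall in the same count as the rest of the peak, and their part in the difference was not tested.

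The sum with the lowest p was the distal one named for *Ccr1*, a receptor for the inflammatory chemokines CCL3 and CCL5. It held 900.4 and 1444 CPM in the WT pools and 2726 and 2619 CPM in the KO pools. The pools did not overlap, and per kb of peak the KO mean of 77.2 CPM stood beside 33.9 CPM in WT. The log2 fold change was 1.19 (SE 0.27, 95% interval 0.61 to 1.76), which is 2.28-fold. Nearly all of it came from a peak of 33.61 kb (chr9:123922966-123956576), annotated as intergenic and centered 28.92 kb from the *Ccr1* TSS. A second peak of 1.01 kb nearer the gene held 4.94 and 10.9 CPM in WT and 8.19 and 9.18 CPM in KO, with overlapping pools and a log2 fold change of 0.14 (SE 0.69).

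*Ccr1l1*, a gene for a receptor similar to CCR1, lies next to it. Its distal sum of 3 peaks held 179 and 292 CPM in WT and 406 and 486 CPM in KO. Both KO values were above the WT values, and the log2 fold change of 0.92 (SE 0.25) had an adjusted p of 0.9997. Within the sum, 2 peaks upstream of the TSS, centered at −6.27 and −13.04 kb from it, both had a log2 fold change of 0.99 (SE 0.23 and 0.28). The peak on the other side of the TSS, 2.54 kb away, had 0.28 (SE 0.38). Further along the cluster, *Ccr3*, the eotaxin receptor gene, gave −0.34 (SE 0.27), with overlapping pools.

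Whether *Ccr1*, *Ccr1l1* and *Cx3cr1* are called depended on how the libraries were scaled. With loess offsets, which remove a trend of the ratio with level, 3 sums passed the threshold in the same edgeR test (0.0147% of sums higher and 0.00737% lower in KO). *Ccr1* was higher by 1.08 (SE 0.07, adjusted p = 1.92e-07), *Ccr1l1* was higher by 0.84 (SE 0.13, adjusted p = 0.0405), and *Cx3cr1* was lower, at −0.60 (SE 0.07, adjusted p = 0.000787). With loess offsets and any single pool left out, *Ccr1* passed in all 4 fits, while *Ccr1l1* was lost without the KO male pool (adjusted p = 0.99997) and *Cx3cr1* without the KO female pool (adjusted p = 0.0798). The next lowest p with loess offsets, named after its value was seen, belonged to the distal sum of *Hlf*, a transcription factor gene, at −0.74 (SE 0.15, adjusted p = 0.608).

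**Figure D2:**
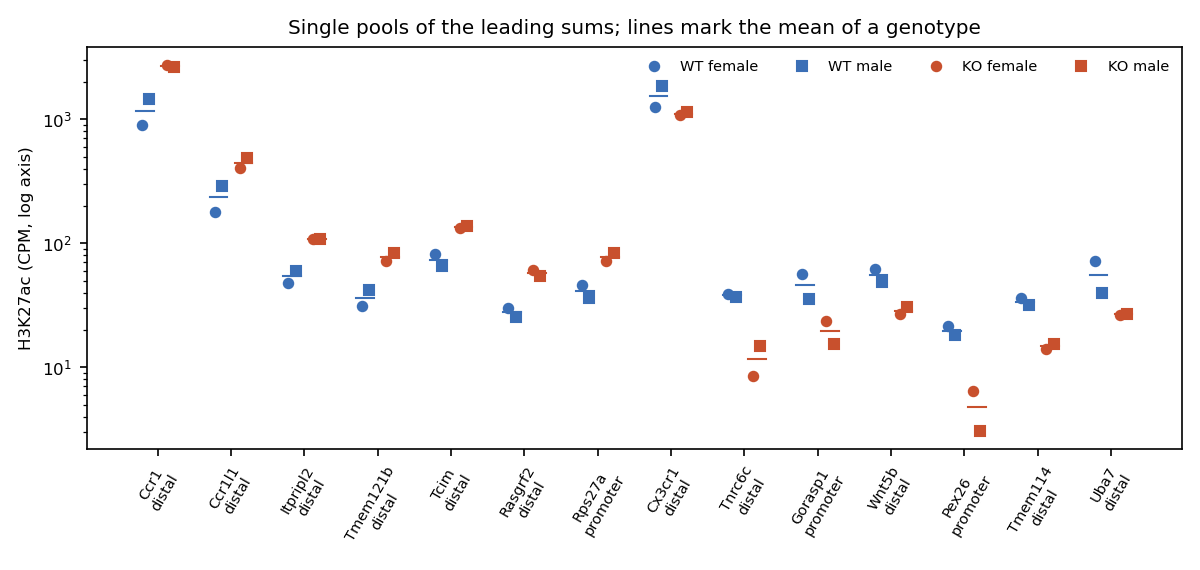
H3K27ac in CPM (vertical log axis) of every pool for 14 leading sums (horizontal axis): WT in blue, KO in red, female pools as circles, male pools as squares, and the mean of a genotype as a line. In each of the 14 sums both KO pools lie on one side of both WT pools.

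The other sums with the lowest p, 5 higher and 6 lower in KO, did not pass the threshold and are given as values. The 12 sums chosen this way, *Ccr1* included, have non-overlapping pools in every case, which the choice by p favours. Higher in KO were the distal sums of *Itpripl2*, *Tmem121b*, *Tcim* and *Rasgrf2* and the promoter sum of *Rps27a*. *Itpripl2* held 47.7 and 60.2 CPM in the WT pools and 108.3 and 108.5 CPM in the KO pools, in 1 intergenic peak (log2 fold change 0.998, SE 0.226). *Tmem121b* held 31.3 and 41.7 CPM in WT and 72.2 and 83.8 CPM in KO, in an intron (1.09, SE 0.25). *Tcim* encodes a transcriptional and immune response regulator. Its sum of 2 intergenic peaks held 82.0 and 65.0 CPM in WT and 133 and 138 CPM in KO (0.89, SE 0.22). *Rasgrf2*, a gene for an exchange factor of Ras, held 29.96 and 25.6 CPM in WT and 60.4 and 54.5 CPM in KO (1.05, SE 0.27), and 1 of its 2 peaks carried most of the difference, with a log2 fold change of 1.54 (SE 0.35) against 0.37 (SE 0.44). *Rps27a* encodes ubiquitin fused to a ribosomal protein. Its promoter peak held 46.4 and 35.9 CPM in WT and 71.3 and 83.7 CPM in KO (0.92, SE 0.25).

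Lower in KO were the distal sums of *Tnrc6c*, *Wnt5b*, *Tmem114* and *Uba7* and the promoter sums of *Gorasp1* and *Pex26*. *Tnrc6c* encodes a GW182 protein that carries out silencing by microRNAs. Its 3 intronic peaks together held 38.8 and 37.1 CPM in WT and 8.44 and 14.9 CPM in KO, and the log2 fold change was −1.70 (SE 0.39). The 3 peaks gave −2.12, −1.66 and −0.96, with SEs of 0.54, 1.18 and 0.90. *Gorasp1*, a gene for a protein that stacks Golgi cisternae, lies 0.113 Mb from the middle of the *Cx3cr1* peak. Its promoter peak held 56.3 and 35.2 CPM in WT and 23.4 and 15.5 CPM in KO (−1.22, SE 0.35). *Wnt5b*, which encodes a secreted Wnt ligand, held 62.5 and 48.9 CPM in WT and 26.7 and 30.3 CPM in KO (−0.96, SE 0.28). *Pex26*, needed for import into peroxisomes, held 21.4 and 18.0 CPM in WT and 6.49 and 3.06 CPM in KO (−2.04, SE 0.60). *Uba7* encodes the enzyme that activates ISG15. Its 5 peaks summed to 71.4 and 39.7 CPM in WT and 26.4 and 26.8 CPM in KO (−1.05, SE 0.31). *Tmem114* held 35.9 and 31.5 CPM in WT and 14.1 and 15.4 CPM in KO (−1.19, SE 0.35), but its peak lies 657 kb from the TSS that names it. All 6 held far fewer reads than the *Ccr1* and *Cx3cr1* sums and had larger SEs.

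**Figure D3:**
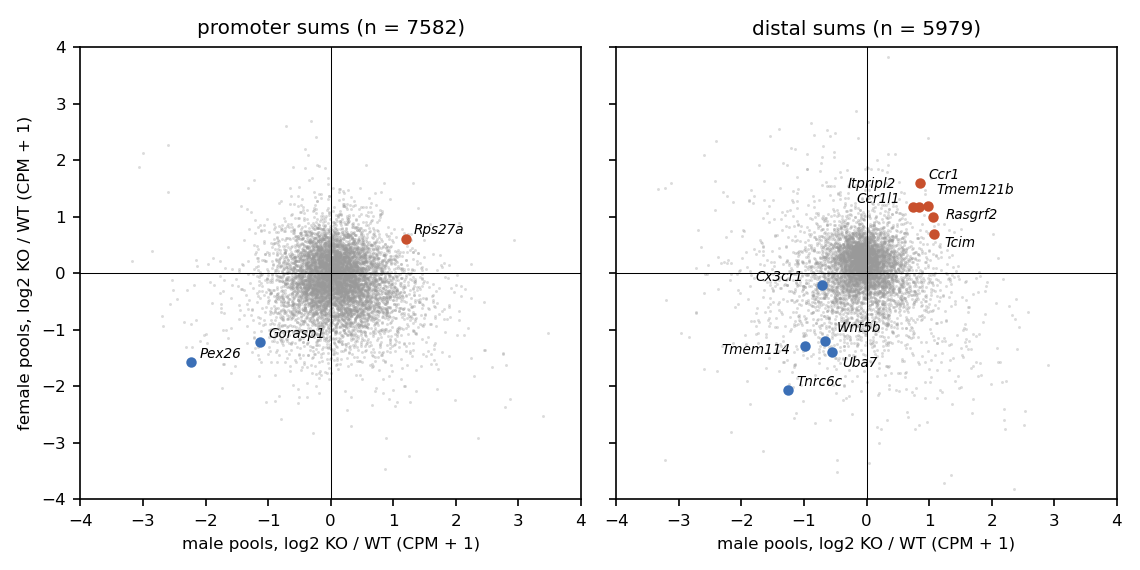
Log2 ratio of KO to WT in the female pools (vertical axis) against that in the male pools (horizontal axis), from CPM + 1, for promoter sums (left) and distal sums (right). The leading sums lie in the upper right and lower left quadrants, which the choice of most of them by low p favours. The cloud as a whole shows no common direction, and 46.6% of all sums had the same sign in both sexes.

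The calls depended on which pools were used. Without the WT female pool, 302 sums passed the threshold (158 higher, 1.17%, and 144 lower, 1.06%), and without the WT male pool 1477 did (1119 higher, 8.25%, and 358 lower, 2.64%). In these fits a single WT pool is assumed to vary like the KO pair, whose spread was the smaller one. The fits also share both KO pools. Most sums named above were chosen by low p in the fit of all pools, which favours the same sign in both of these fits. Only 71 sums were called in both, and 20 of them had the same sign. Those 20 included *Ccr1*, *Ccr1l1*, *Cx3cr1*, *Itpripl2*, *Tmem121b*, *Tcim*, *Rasgrf2*, *Rps27a*, *Tnrc6c* and *Hlf* of the sums named above. The rest of the 71 had opposite signs in these fits. *Gorasp1*, *Wnt5b*, *Pex26*, *Tmem114* and *Uba7* were lower in both fits, but passed the threshold only without the WT male pool. Without a KO pool, 0 sums passed with the KO female left out (123 with an unadjusted p under 0.05). With the KO male left out 1 passed, the distal sum of *4930517M08Rik*, which held 27, 354, 0 and 66 reads in the WT female, WT male, KO female and KO male pools.

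Among homeostatic genes of microglia, no sum was called. *Sall1*, the gene of a transcription factor that marks microglia among macrophages, held 1607 and 2392 CPM in WT and 1928 and 2101 CPM in KO, summed over 19 distal peaks. The pools overlapped, and the log2 fold change was 0.01 (95% interval −0.54 to 0.56), with −0.25 without the WT female and 0.33 without the WT male pool. *Spi1*, which encodes PU.1, gave 0.02 (−0.49 to 0.53), *Csf1r*, the receptor gene for the survival factors CSF1 and IL-34, gave 0.06 (−0.48 to 0.60), and *P2ry12*, a purine receptor gene, gave 0.23 (−0.32 to 0.77). Per kb of peak in WT, *Spi1* stood at 33.6 CPM, *Cx3cr1* at 32.6, *P2ry12* at 27.3 and *Sall1* at 19.7, all above the median of 12.9 over all sums. *Tmem119* had only a small distal peak of 651 bp with 25, 4, 94 and 77 reads in the WT female, WT male, KO female and KO male pools. Of the signature list as a whole, 41 of 43 genes had a sum. Of their 47 sums, 0 were called, 7 were higher and 6 lower without overlap, and the median log2 fold change was 0.08 beside −0.01 over all sums. *Adgrg1* and *Cx3cr1* had the lowest p of this list. The *Adgrg1* promoter, of an adhesion receptor gene, held 33.2 and 65.5 CPM in WT and 67.7 and 79.0 CPM in KO (0.55, SE 0.29), and the value was 0.16 without the WT female and 1.14 without the WT male pool.

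Lists of genes tied to microglial activation were counted in the same way, and in none of them was a sum called. Among 44 sums of genes known from disease-associated microglia, 8 were higher and 4 lower without overlap, and the median was 0.01. The lowest p there belonged to the promoters of *Ctsl*, the cathepsin L gene, and *Timp2*, a gene for an inhibitor of metalloproteinases. *Ctsl* held 50.7 and 45.2 CPM in WT and 66.8 and 69.2 CPM in KO (0.51, SE 0.24). *Timp2* held 73.7 and 78.6 CPM in WT and 56.4 and 53.1 CPM in KO (−0.48, SE 0.23). Lysosomal genes had 59 sums, 15 higher and 8 lower without overlap, with a median of 0.07; *Neu1*, the neuraminidase gene, had the second lowest p of the list, with a distal log2 fold change of −1.35 (SE 0.78) that was −0.42 without the WT female and −1.94 without the WT male pool. Genes of inflammatory cytokines and NF-κB had 51 sums, 9 higher and 4 lower, with a median of 0.05. There, the promoter of *Rel*, an NF-κB subunit gene, held 125 and 134 CPM in WT and 164 and 181 CPM in KO (0.41, SE 0.20), and that of *Il6* gave 0.38 (SE 0.24). Interferon response genes had 44 sums, 6 higher and 5 lower, with a median of 0.02. The distal sum of *Zbp1*, the gene of a sensor of nucleic acids, gave −0.81 (SE 0.29). This was −0.23 without the WT female and −1.24 without the WT male pool.

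**Figure D4:**
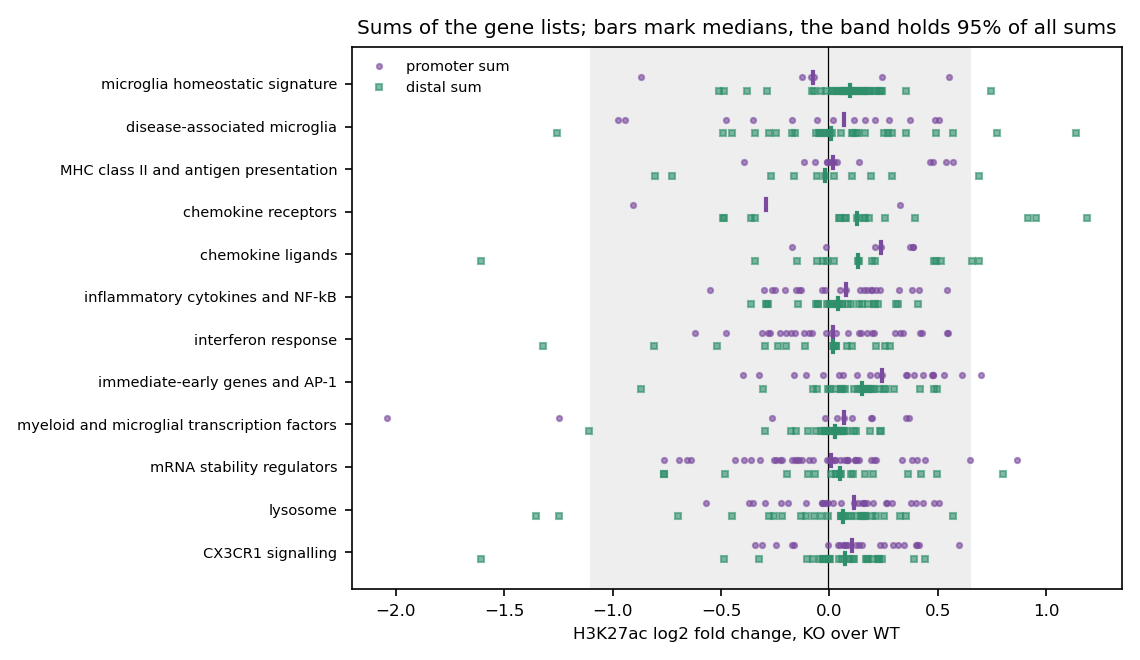
H3K27ac log2 fold change of KO over WT (horizontal axis) for every sum of 12 gene lists (rows), promoter sums as purple circles and distal sums as green squares, with medians as thick bars and the central 95% of all sums as a grey band. Nearly all sums stay inside the band, and the promoter median of the immediate-early genes is at 0.24.

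Immediate-early genes, which code for factors such as the FOS, JUN and EGR proteins, are switched on within minutes of a stimulus. Of their 49 sums, 15 were higher and 2 lower without overlap, and of the 21 promoter sums 10 were higher and 0 lower, beside 15.2% and 15.9% of all promoter sums. Their median was 0.18 for all sums and 0.24 for promoters, but no sum was called and only 2 had an unadjusted p under 0.05. Both were at *Fos*. Its promoter held 29.96 and 26.4 CPM in WT and 37.2 and 54.2 CPM in KO (0.70, SE 0.30). The 7 distal peaks of *Fos* summed to 158 and 178 CPM in WT and 237 and 235 CPM in KO (0.48, SE 0.20). *Klf2*, a transcription factor gene of the same list, held 84.6 and 82.5 CPM in WT and 115 and 108 CPM in KO in its distal sum (0.42, SE 0.21), and its promoter gave 0.61 (SE 0.32). Other promoters with higher KO pools, named here after their values were seen, were those of *Jun* (0.24), *Myc* (0.39) and *Egr2* (0.48). At *Egr1* the pools overlapped (0.15, SE 0.23). Over all sums, the highest of the 5 level groups had a median of 0.08.

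The promoter of *Fos*, the only gene of this list with a p under 0.05 in both sums, is shown from RefSeq (GRCm38.p6, chr12:85473640-85473939, + strand), from 250 bases before the TSS to 50 after it, with the letters TATAAA in capitals. That motif was found on either strand in 374 of the 6085 promoter sums matched to RefSeq (6.15%) and in 13.6% of all promoters of the RefSeq table.
Fos: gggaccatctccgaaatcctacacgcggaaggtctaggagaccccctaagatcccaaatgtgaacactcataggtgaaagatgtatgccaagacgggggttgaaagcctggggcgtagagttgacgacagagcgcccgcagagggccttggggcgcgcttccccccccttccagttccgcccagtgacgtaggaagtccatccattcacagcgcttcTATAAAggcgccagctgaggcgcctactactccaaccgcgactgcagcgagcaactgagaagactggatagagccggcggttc
The acetylated peak at this promoter spans 2.96 kb (chr12:85472031-85474991) and contains the whole stretch.

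Chemokine receptors had 19 sums, 3 higher and 3 lower without overlap, with a median of 0.13, and *Ccr1* and *Ccr1l1* had the lowest p of that list. Chemokine ligands had 23 sums, 7 higher and 1 lower, with a median of 0.20. *Cxcl11* gave 0.48 (SE 0.22) from 2 distal peaks. *Cx3cl1*, the gene of the ligand itself, had 1 small distal peak with 78, 55, 72 and 64 reads in the WT female, WT male, KO female and KO male pools, or 25.7 and 9.63 CPM in WT and 5.84 and 5.59 CPM in KO (−1.61, SE 0.64). Without the WT female pool this was −0.75 and without the WT male pool −2.16. Genes of CX3CR1 signalling had 52 sums, 12 higher and 5 lower, with a median of 0.09. *Rac2*, a small GTPase gene, had the second lowest p there, with 46.1 and 54.8 CPM in WT and 93.8 and 59.4 CPM in KO at its promoter (0.60, SE 0.27). Genes that control mRNA stability had 61 sums, 12 higher and 3 lower, with a median of 0.03. The promoters of *Ybx1*, an RNA-binding protein gene, and *Rc3h1*, the Roquin gene, gave 0.87 (SE 0.32) and 0.65 (SE 0.35). Myeloid transcription factor genes had 41 sums, 3 higher and 7 lower, with a median of 0.03. The promoters of *Smad4*, the common mediator of TGF-β signalling, and *Mitf*, a regulator of lysosomal genes, gave −1.25 (SE 0.40) and −2.04 (SE 1.01). The *Mitf* promoter held only 22, 61, 32 and 20 reads in the WT female, WT male, KO female and KO male pools. Its distal sum held 203 and 317 CPM in WT and 270 and 274 CPM in KO, and gave 0.06. MHC class II and antigen presentation genes had 25 sums, 6 higher and 2 lower, with a median of 0.01. *H2-DMb2* held 69.5 and 118 CPM in WT and 153 and 152 CPM in KO (0.69, SE 0.25), and the promoter of *Psmb9*, an immunoproteasome subunit gene, gave 0.57 (SE 0.24).

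The study names genes with lower or higher RNA in KO microglia of other mice, and their acetylation was looked up in these libraries. Of 22 genes named as lower, 11 had a sum. Their 14 sums had a median of −0.09, with 3 higher and 1 lower without overlap, and the lowest p of these was that of *Ccr1*, with 1.19. *H2-Aa* gave −0.73 (SE 0.78, and −0.12 without the WT male pool), *H2-Ab1* −0.16 (SE 0.46) and *H2-Eb1* −0.81 (SE 0.51), all from peaks with few reads, and *Clu* had no sum. *Lyz2* gave 1.14 (SE 0.73) in its distal sum and −0.97 (SE 0.68) at its promoter, the latter −0.22 without the WT female and −1.92 without the KO male pool. All 4 genes named as higher had a sum: their 5 sums had log2 fold changes from 0.15 to 0.92 with a median of 0.42, 3 of them higher without overlap. The genes are *Tnf*, *Egr1*, *Klf2* and *Ccr1l1*, and both sums of *Klf2* and that of *Ccr1l1* are the ones without overlap. *Tnf*, the cytokine gene, held 55.3 and 67.2 CPM in WT and 64.9 and 88.7 CPM in KO at its promoter, and the pools overlapped (0.32, SE 0.24). The promoters of *Klhl42* and *Auh* gave −0.08 (SE 0.50) and −0.10 (SE 0.52), and the distal sum of *Auh* gave −0.76 (SE 0.51). Both *Auh* values changed sign with a WT pool left out, to 0.82 at the promoter without the male and 0.050 in the distal sum without the female pool.

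Markers of other cells that a sort could carry were mostly without a sum. Of 12 neuronal markers 9 had none, among them *Rbfox3*, and of 10 astrocyte markers 8 had none, among them *Gfap* and *Aqp4*. Likewise 8 of 12 oligodendrocyte markers, 7 of 11 endothelial and pericyte markers, 12 of 16 monocyte and neutrophil markers and 13 of 20 lymphocyte markers had none. Those with a sum included *Camk2a* for neurons, *Slc1a3* and *S100b* for astrocytes, *Mbp* and *Mag* for oligodendrocytes, and *Pecam1* and *Flt1* for endothelial cells. *S100b* held 19.4 and 20.3 CPM in WT, so most of the astrocyte level below came from *Slc1a3*. The distal sum of *Pecam1* held 144 and 138 CPM in WT and 166 and 163 CPM in KO. No sum of these lists was called. Summed levels were 394 to 562 CPM in WT and 486 to 495 CPM in KO for astrocytes, 492 to 556 and 499.9 to 551 CPM for the oligodendrocyte lineage, and 325 to 348 and 361 to 385 CPM for endothelial cells and pericytes. They ranged from 40.5 to 48.3 CPM in WT and from 33.5 to 39.5 CPM in KO for neurons. For monocytes and neutrophils the ranges were 68.8 to 118 CPM in WT and 85.98 to 114 CPM in KO, and for lymphocytes 102 to 174 CPM in WT and 117 to 136 CPM in KO. Macrophages at the borders of the brain share many genes with microglia, and 7 of their 12 markers had a sum, together 653 and 813 CPM in WT and 746 and 688 CPM in KO. Of their 8 sums, 0 were higher and 2 lower without overlap, with a median log2 fold change of −0.16, and the 7 distal sums ran from −1.31 to 0.33 with a median of −0.01. The lowest p of the list were at *Mrc1* and *F13a1*. The promoter of *Mrc1*, the mannose receptor gene, held 17.8 and 22.8 CPM in WT and 9.57 and 4.37 CPM in KO (−1.54, SE 0.56, and −2.21 without the KO female pool), and the distal sum of *F13a1* gave −1.31 (SE 0.75). In a pool, fewer cells of a type and less acetylation per cell cannot be told apart. The part of such cells in the results above was not tested.

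The promoter and distal sums of a gene were also compared with each other, in a model that asks whether distal acetylation changed differently from the promoter. Among 2614 genes, 1 passed the threshold (0.0383%), and 100 had an unadjusted p under 0.05 (3.83%). It was *Cd33*, the gene of a receptor for sialic acids. Its promoter held 116 and 146 CPM in WT and 167 and 160 CPM in KO. Its distal sum held 14, 44, 9 and 5 reads in the WT female, WT male, KO female and KO male pools, which is 4.61 and 7.70 CPM in WT and 0.73 and 0.44 CPM in KO. The distal change minus the promoter change was −3.64 on the log2 scale (SE 0.42, with an adjusted p of 0.0448 in edgeR). The call was lost with loess offsets, over all peaks, under a filter of 10 reads in every library, which removes this gene, and without the WT female, the WT male or the KO male pool. The next lowest p belonged to *Mitf*, *Tex9*, *Galnt10* and *Gsdme*, with differences of 2.15, 2.30, −1.69 and 1.20 (SE 0.35, 0.54, 0.42 and 0.30). Over all genes with both sums, the signs were the same in 50.2%, and the log2 fold changes of promoter and distal sums had a Pearson's r of 0.05 (Spearman's rho 0.05, n = 2614 genes of the same 4 libraries).

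**Figure D5:**
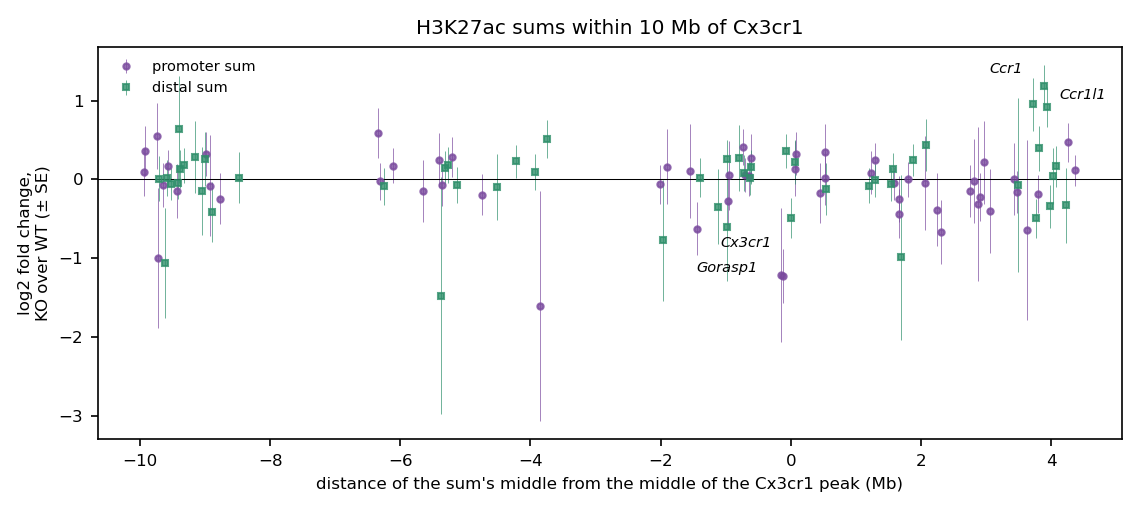
Log2 fold change of KO over WT with its SE (vertical axis) for the 109 sums within 10 Mb of the middle of the *Cx3cr1* peak, by distance in Mb (horizontal axis), promoter sums as purple circles and distal sums as green squares. *Ccr1* and *Ccr1l1* reach 1.19 and 0.92 near 3.9 Mb, and *Gorasp1* lies at −1.22 beside *Cx3cr1*.

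The region around the disrupted gene was described apart from the rest. Of 109 sums within 10 Mb of the *Cx3cr1* peak, 25 (22.9%) were higher and 12 (11.01%) lower in KO without overlap, and 5 (4.59%) had an unadjusted p under 0.05. On the rest of chromosome 9 the shares were 14.8%, 16.98% and 2.02% of 642 sums, and on the other chromosomes 15.1%, 15.5% and 2.98% of 12810. The median log2 fold change was 0.01 in the window and −0.01 on the other chromosomes.

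Distal peaks were then split by motifs found in the 300 bases around their center. PU.1 (GAGGAAGT) was found in 7.83% of the 13340 distal peaks and in 2.89% of the promoter peaks, and AP-1 (TGANTCA) in 9.59% and 3.81%. The E-box (CACGTG) was more frequent at promoters, with 8.47% against 5.16% of distal peaks. Distal peaks with a PU.1 match had a median log2 fold change of 0.00, beside −0.01 for those without. With an AP-1, E-box or NF-κB match it was −0.01, as without. The motif of interferon factors (GAAA, 2 bases of any kind, GAAA), in 5.07% of distal peaks, gave 0.03 beside −0.01. The MEF2 motif, in 0.487% of them, gave 0.06 beside −0.01. These are descriptions of medians, and no test was made.

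RNA polymerase II, measured with an antibody to its Rpb2 subunit in 4 further libraries, gave a second readout at promoters. Both readouts existed for 3857 genes, and the log2 fold changes had a Pearson's r of 0.04 (Spearman's rho 0.04) across these genes, with the same sign in 51.9%. In edgeR, 0 of 5147 Rpb2 promoter sums passed the threshold (0%, lowest adjusted p 0.0937), 559 had an unadjusted p under 0.05 (10.9%), and DESeq2 called 6. With sex as a block 13 passed. Both KO pools were above both WT pools in 19.5% and below them in 20.7% of these sums. The Rpb2 library labelled WT female held 62, 49 and 25 reads at the promoters of *Ddx3y*, *Uty* and *Eif2s3y* on the Y chromosome, against its label, so the sex block rests on a label that its reads contradict, while that labelled KO female held 0 at each. At *Tnf* the Rpb2 log2 fold change was 1.05 (SE 0.24, adjusted p = 0.102 in edgeR) with non-overlapping pools, beside 0.32 for acetylation. At *Klf2* it was 0.82 (SE 0.22) beside 0.61, at *Fos* 0.20 (SE 0.36) beside 0.70, and at *Gorasp1* 0.19 (SE 0.39) beside −1.22.

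The limit of 1000 bp that splits the classes falls among similar peaks. The last peak inside, at 1000 bp from the TSS of *Tmcc3*, held 33, 27, 52 and 125 reads in the WT female, WT male, KO female and KO male pools, and the first outside, at 1002 bp from that of *Ctdspl*, held 57, 91, 125 and 196. Of the promoter sums 98.6% rested on 1 peak, while a distal sum held up to 21 peaks. Of the distal sums 18.0% included a peak wide enough to cover the TSS, as at *Cx3cr1* and *Spi1*. A pool had 0 reads in 98 sums, and in none of them were both pools of a genotype at 0.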

How the data were processed

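ChIP-seq was performed on sorted, fixed microglia, with 51-nt single-end reads. Per the methods and labels, the authors mapped reads to mm10 with Bowtie 2, kept unique reads, called peaks with HOMER, kept peaks reproducible between pools and merged the WT and KO lists. Raw counts of reads in each merged peak were deposited for each library. The columns of per-sample values not used numbered 0, and the input libraries were not used. Mapped reads ran from 10395804 to 21134403; 3 reads, the smallest count told apart from 0, are 0.142 to 0.289 CPM of them (counting error only, as reads carry no molecular identifiers).

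Counts were summed per gene and class and fitted in edgeR 4.0.16 (R 4.3.3; TMM factors, glmQLFit and glmQLFTest, Benjamini-Hochberg over all 13561 sums, genotype as the only term). Sums under a mean of 4 reads in both genotypes were to be left out, and there were 0. Ratios of single pools used CPM + 1. The class comparison added an interaction of class and genotype. Pools of different mice are replicates within a genotype; the labels do not pair them. Promoters were matched to RefSeq by name or identifier for 80.3% of promoter sums. Fits were tested on simulated data. Tables and plots were made in Python 3.11.15 (pandas 2.3.3, matplotlib 3.10.9).

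Named were *Cx3cr1*, the 6 sums of lowest p in each direction, genes the study names, the 2 of lowest p of each list, 6 microglial markers and the 5 of lowest p between classes, and a few of them are not reported here. Members and lists were chosen with earlier results of these data known. Alternatives covered scaling, DESeq2 1.42.0, limma 3.58.1, filters, peak sets, the promoter limit, sex as a block and each pool left out. Those with loess offsets and a pool left out, and with peaks that cover the TSS counted as promoter, were added after seeing the data.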

Additional observations from a re-analysis of the deposited data

How the results depend on the processing

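Against 0 sums called, DESeq2 with or without its prior, the likelihood ratio test of edgeR, scaling by total reads in the sums and fitting the classes apart called 1 sum each, which was *Ccr1* every time. The newer quasi-likelihood method and sex as a replicate block called 1 each, the distal sum of *4930517M08Rik*. Limma voom with sample weights and loess offsets called 3 each. Without replicates in turn the calls ranged from 0 to 1477, and with loess offsets as well they were 2, 3, 256 and 596, without the KO female, KO male, WT female and WT male pool. The remaining alternatives called 0. Sex is the only number shared by pools of the genotypes, the deviations of same-sex pools correlated by 0.06, and so they were not taken as paired. Under this block the calls moved from 0 to 1 for acetylation and from 0 to 13 for Rpb2, where the label of the WT female library is contradicted by its Y-linked reads. Rpb2 calls were 6 with DESeq2 with or without its prior, 16 with the likelihood ratio test, and 0 to 5 without replicates in turn. Calls between promoter and distal sums went from 1 to 0 with all peaks, with 10 reads in every library and with loess offsets, and were 0 to 8 without replicates in turn. Scaling by total mapped reads moved the median of all sums to 0.74 and turned the sign of *Cx3cr1* (0.090), *Ccr3* (0.18), *H2-Eb1* (0.12), the *Lyz2* promoter (0.12), distal *Auh* (0.39), *Timp2* (0.24) and *Zbp1* (0.24), all below that shift. With a promoter limit of 2500 bp, *Plac8* distal was −1.16. Without replicates in turn, *Ccr3* ranged from −0.68 to 0.11, *Auh* distal from −1.31 to 0.050, the *Camk2a* promoter from −1.31 to 0.21 and *Sall1* from −0.25 to 0.33. With loess offsets and without the WT male pool, the *Camk2a* promoter was 0.81, *Pecam1* −0.023 and *Ngp* 0.18. Apart from the construction of each alternative, the cause of these moves was not tested. The WT female pool had the fewest reads in peaks, which limits the precision of its values.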

Other observations

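Acetylation on the X chromosome had a median log2 fold change of −0.15 over 346 sums, beside −0.0050 over 13206 autosomal sums. The ratio of the female pools had a median of −0.17 and that of the male pools −0.04 on the X chromosome. In 732 sums (5.4%), the female and the male ratio of KO to WT pointed in opposite directions by at least 1.5-fold each. None of the 67 named sums was among them, which the choice of many of them by low p favours. These differences were not tested.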
